A study of Mus musculus with 8 samples.

Results

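The comparison described here is that of 2 independent differentiation series of mouse neural progenitor (NP) cells, called differentiation batch 1 and differentiation batch 2, with genotype held as a blocking term. All 8 arrays of the study entered it, 4 from each batch, and the genes compared were the 23410 rows of the array table that carry a gene symbol, out of 35556. R1 ES cells, a mouse embryonic stem cell line, were differentiated as monolayers in the serum-free medium N2B27 and collected on Day 4. Each batch held 2 cultures labelled Conditional, a line with a conditional *Sox3* allele and the genotype Sox3 positive (control cells, which the methods call wild type), and 2 cultures labelled Sox3 null, which carry GFP in place of the only *Sox3* exon. Each genotype was 1 ES cell line, the cultures were not sorted, and all 8 cultures shared the cell background, the medium and the day. The labels place the ES cells on gelatine before differentiation, whereas the methods name irradiated mouse embryonic fibroblasts (MEFs).

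In N2B27, ES cells leave pluripotency without serum and adopt a neural fate, with autocrine FGF signalling and low BMP and Nodal activity as known requirements. The progenitors that form then acquire positional identity under Wnt, retinoic acid, hedgehog and BMP signals, while the cultures keep dividing and usually retain some pluripotent and non-neural cells.

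Each batch was a single differentiation series, so the p-values measure the spread between cultures and arrays within a series, not between series. No source used here says whether RNA or arrays of the batches were also handled apart, and such handling and the differentiation series cannot be told apart. Array medians over the rows tested lay between 7.63 and 7.70 on the log2 scale. *Sox3* had log2 signals of 9.73 to 9.92 on the control arrays and 8.37 to 8.67 on the null arrays, apart in every culture. All 8 defining NP markers lay above the median signal of the rows tested (7.67), as did 6 of 8 markers of undifferentiated ES cells, 6 of 6 neuronal markers, 2 of 6 mesoderm and endoderm markers, 2 of 8 fibroblast markers and 0 of 5 endothelial and blood markers. Correlations between 2 arrays of the same genotype ran from 0.998 to 0.999 within a batch and from 0.994 to 0.997 across batches.

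A row was called where limma's adjusted p was 0.05 or less and the fold change was 1.4 or more. In all, 584 rows were called, which is 2.49% of the rows tested. Of these, 240 were higher in batch 2 (1.03%) and 344 were lower (1.47%). At any fold change, 2546 rows passed the adjusted p with a higher value in batch 2 (10.9%) and 2190 with a lower value (9.35%). Most differences were small, as 79.5% of rows lay within 0.2 of 0 and 28 rows reached a fold change of 2, of which 5 were higher and 23 lower. The median log2 fold change over the rows tested was 0.0027 and the median standard error 0.061. When each array was instead centred on its median over all 35556 rows, 490 rows were called higher and 205 lower, so that 70.5% of calls were higher in place of 41.1%, and the median log2 fold change was then 0.08. The balance of higher and lower calls therefore depends on the scaling, whereas all 584 rows kept their sign. List medians that centring moved by more than 1.5 times are given with their value for centred arrays in parentheses.

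All 584 called rows had the same sign in control and in null cells. For 576 of them, both arrays of batch 2 lay on the same side of both arrays of batch 1 within each genotype, against 29.2% of all rows, but these arrays had also made the calls. A reading in arrays not used for the call came from calling rows in the 4 control arrays alone and reading them in the 4 null arrays. Both genotypes came from the same 2 differentiation series. The reading therefore shows whether a difference holds in both genotypes, not whether it would recur in other series. Of 569 rows called in control cells, 565 (99.3%) had the same sign in null cells, against 71.8% of all rows, and their median log2 fold change was 0.52 for the higher and -0.53 for the lower rows. In the reverse reading, 709 of 714 rows called in the null arrays had the same sign in control cells, with medians of 0.43 and -0.55. With the spread estimated over all arrays, 562 rows were called in control cells (2.4%) and 695 in null cells (2.97%). Of the 584 called rows, 318 were called in both genotypes, 238 in 1 and 28 in neither. No row passed the test of a difference of the batch effect between genotypes (limma interaction, smallest adjusted p = 0.862). The plain linear model also gave 0. In the limma interaction, an unadjusted p under 0.05 was held by 715 of all rows (3.05%) and by 63 of the 584 called rows (10.8%).

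**Figure D1:**
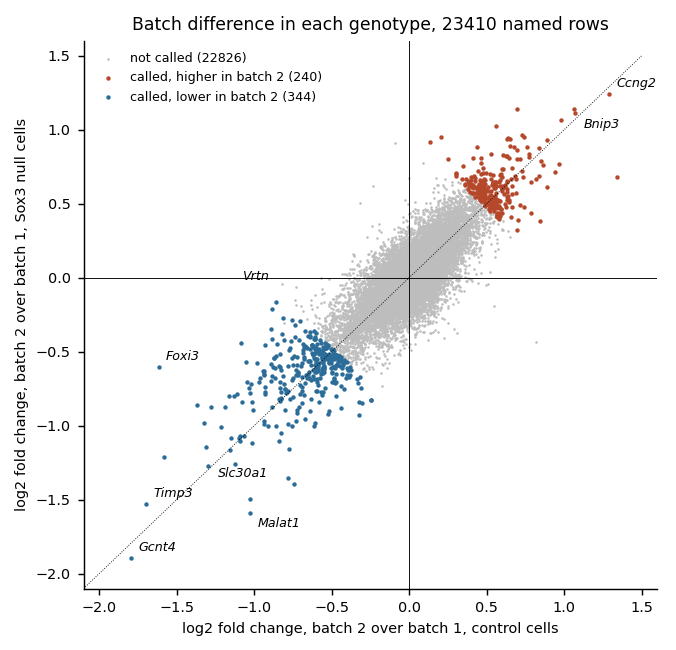
Log2 fold change of batch 2 over batch 1 in control cells (horizontal axis, 2 arrays against 2) and in *Sox3* null cells (vertical axis, 2 against 2) for each row tested. The 240 rows called higher and the 344 called lower lie in the quadrants where both genotypes have the same sign, near the dotted line of equality.

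Among the genes highest in batch 2 were regulators of cell cycle exit, lipid export, hypoxia and mitosis. *Ccng2*, which encodes the growth-restraining cyclin G2, had log2 signals of 7.29 and 7.50 in control and 7.68 and 7.65 in null cultures of batch 1, and of 8.70, 8.67, 8.94 and 8.87 in batch 2. No batch 2 culture overlapped a batch 1 culture, and the difference was 2.40-fold (log2 fold change 1.27, SE 0.06, adjusted p = 1.65e-06, limma). *Abca1*, the cholesterol and phospholipid exporter, lay between 7.24 and 7.27 on the 4 arrays of batch 1 and between 8.20 and 8.59 in batch 2 (log2 fold change 1.10, SE 0.08). *Bnip3*, a hypoxia-induced mitophagy receptor, lay between 8.43 and 8.60 in batch 1 and between 9.54 and 9.74 in batch 2 (1.09, SE 0.06), with a second row of the gene at 0.73. In control and null cells in turn, the log2 fold change was 1.29 and 1.24 for *Ccng2*, 1.06 and 1.14 for *Abca1*, and 1.07 and 1.11 for *Bnip3*.

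The other large differences in this direction were *Wnt8a* (0.92), a Wnt ligand of the early posterior embryo, *Kif18a* (0.91), a kinesin that aligns mitotic chromosomes, *Slc16a3* (0.87), which exports lactate, *Rab33a* (0.86), a small GTPase of vesicle transport, *Snora44* (0.85), a small nucleolar RNA, the long non-coding locus *Gm32061* (0.84), the zinc finger gene *Zfp931* (0.83) and *Cyp26a1* (0.82), which degrades retinoic acid. *Etfbkmt*, a mitochondrial lysine methyltransferase gene, was at 1.02 on its brighter row and 0.05 on a second row, so its rows disagree. *Zfp931* was the least even of them, with 5.43 to 6.59 in batch 1 and 6.46 to 7.07 in batch 2. Within each genotype its batches were apart, but over all 8 arrays they overlapped.

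The largest difference of all was in *Gcnt4*, which encodes a glycosyltransferase that branches O-glycans, and which was 3.59-fold lower in batch 2 (log2 fold change -1.84, SE 0.10, adjusted p = 6.69e-06). Its log2 signals were 7.98, 8.16, 8.91 and 8.38 in control 1, control 2, null 1 and null 2 of batch 1, and 6.21, 6.34, 6.83 and 6.67 in control 3, control 4, null 3 and null 4 of batch 2. *Timp3*, a matrix-bound inhibitor of metalloproteinases, had 9.83, 9.81, 10.34 and 10.24 in batch 1 and 8.10, 8.15, 8.76 and 8.77 in batch 2, the smallest adjusted p of the genes named here (-1.61, SE 0.05, adjusted p = 2.52e-07). Both genes were higher in null than in control cells in each batch, and the batch difference was the larger of the 2. *Malat1*, an abundant nuclear long non-coding RNA, lay between 11.13 and 11.76 in batch 1 and between 9.92 and 10.32 in batch 2 (-1.31, SE 0.13). *Lratd1* (-1.26), *Bhlhe41* (-1.23), a repressor of the circadian clock, *Erbb4* (-1.19), a neuregulin receptor, *Cldn4* (-1.15), a tight junction claudin, and *Nid1* (-1.11), which links laminin to collagen in basement membranes, followed, beside *Slc30a1*, *Dusp5*, *Nkx2-9* and *Foxf1*, which are described with their pathways.

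**Figure D2:**
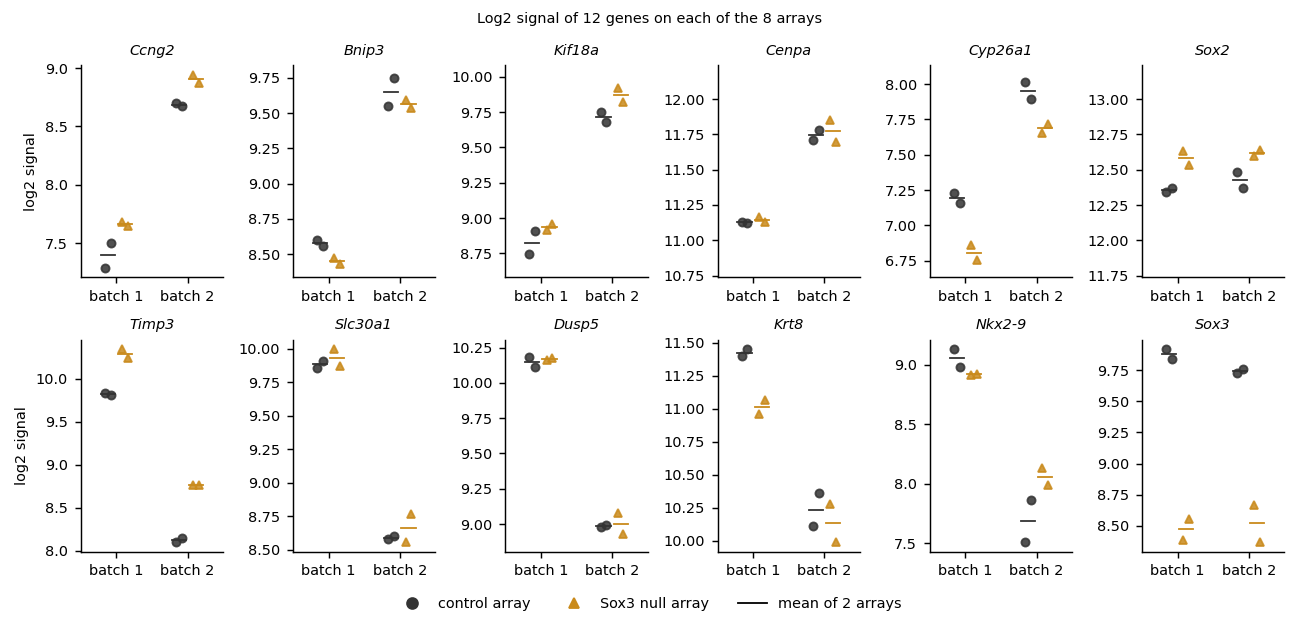
Log2 signal (vertical axes, each panel with its own range) of 12 genes on the 4 arrays of each batch, with control arrays as circles, *Sox3* null arrays as triangles and a line at the mean of 2 arrays. In 10 panels the batches do not overlap in either genotype, whereas *Sox2* had nearly the same signal in both batches and *Sox3* differed by genotype.

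Genes of mitosis were higher in batch 2 as a group, and the shift was small and even. Of 25 measured mitosis genes, 22 passed the adjusted p with a higher value in batch 2 and 0 with a lower one (88.0%, against 10.9% of all rows), and the median log2 fold change was 0.36, with 0.35 in each genotype. The share over all rows takes in dim rows as well. Above the median signal lay all 25 mitosis genes, 73 of 79 oxidative phosphorylation genes and 36 of 39 proteasome genes. The mean of the list lay between -0.20 and -0.14 relative to its mean over 8 arrays on the arrays of batch 1 and between 0.14 and 0.19 in batch 2. The 3 that were called were *Cenpa*, the centromeric histone (0.62), *Prc1*, which bundles the central spindle (0.54), and *Ttk*, the checkpoint kinase MPS1 (0.53). *Aurka* (0.48), a spindle pole kinase, *Plk1* (0.40), the polo-like kinase, and *Cdk1* (0.36), the kinase that drives entry into mitosis, passed below a fold change of 1.4. *Cenpa* had 11.13, 11.12, 11.17 and 11.13 in batch 1 and 11.71, 11.78, 11.85 and 11.70 in batch 2, which shows how narrow the spread within a batch was.

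Genes of S phase moved less. Of 25 measured genes of DNA replication, 10 were higher in batch 2, 0 lower and 0 called, with a median of 0.10 (0.18 with centred arrays). The clamp loader subunits *Rfc3* (0.48) and *Rfc4* (0.43), *Rrm2* (0.30), a subunit of ribonucleotide reductase, and *Gins1* (0.27), part of the replicative helicase, had the smallest p of the list. Of 31 replication-dependent histone genes, whose mRNA lacks a poly(A) tail, 15 were higher and 1 lower, with a median of 0.21. *H2ac4* (0.60) and *H3c15* (0.53) were called higher and *H2bc4* (-0.57) lower, and *H1f5* (0.46) and *H2bc8* (0.47) passed. Histone genes share near-identical sequence, so signal may be shared between their probes.

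Some promoters in the lists that were higher in batch 2 hold short motifs known to bind the regulators of their pathway, and examples are shown for that reason. The counts take in all list members with a window, whatever their batch difference. The windows are the 250 bases before the annotated start in RefSeq (GRCm38.p6), read 5′ to 3′ on the strand of the gene, with matches on either strand in capitals. For mitosis genes the motif was the cell cycle homology region, TTTGAA, which 8 of 21 list members with a window held, 38.1% against 16.3% of 27025 promoters. The window of *Cdk1* is chr10:69352913-69353162 on the minus strand, and it holds 2 matches.
Cdk1: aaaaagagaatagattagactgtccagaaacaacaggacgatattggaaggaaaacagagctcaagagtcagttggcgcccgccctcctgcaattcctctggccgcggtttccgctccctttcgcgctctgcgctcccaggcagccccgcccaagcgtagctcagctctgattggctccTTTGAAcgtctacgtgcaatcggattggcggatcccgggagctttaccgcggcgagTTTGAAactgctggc

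Hypoxia-responsive genes, many of them targets of the factor HIF1 that is stabilised at low oxygen, were higher more often than lower. Of 24 measured, 11 were higher in batch 2 (45.8%, against 10.9% of all rows), 3 lower (12.5%, against 9.35%) and 10 did not pass, with a median of 0.18. Beside *Bnip3*, *P4ha1*, a collagen prolyl hydroxylase, was called higher (0.53), and *Ddit4*, an inhibitor of mTORC1 signalling, passed at 0.47. *Bhlhe40*, a clock and stress repressor (-0.89), and *Ndrg1*, a differentiation and stress gene (-0.67), were called lower. *Bhlhe40* had 7.94, 8.17, 7.83 and 7.62 in batch 1 and 6.93, 7.11, 6.91 and 7.05 in batch 2, so its batches did not overlap either (SE 0.09, adjusted p = 0.000115).

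Of 17 measured glycolysis genes, 8 were higher, 3 lower and 6 did not pass, with a median of 0.19. Of these, 4 were called, all higher (23.5%, against 1.03% of all rows). These were *Pfkl*, the liver-type phosphofructokinase (0.61), *Tpi1*, triosephosphate isomerase (0.59), *Ldha*, which makes lactate from pyruvate (0.52), and *Pgk1*, phosphoglycerate kinase (0.49). *Ldha* had 12.76 and 12.88 in control and 12.71 and 12.73 in null cultures of batch 1, and 13.41, 13.43, 13.12 and 13.21 in batch 2. All 4 were further apart in control than in null cells, with 0.74 and 0.47 for *Pfkl* and 0.60 and 0.44 for *Ldha*, but no difference between genotypes passed the test. *Slc16a3*, which carries the product of *Ldha* out of the cell, had 0.87.

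The core of the hypoxia response element, ACGTG, was present in the windows of 12 of 20 hypoxia-responsive genes (60.0%) and 6 of 16 glycolysis genes (37.5%), against 16.6% of all promoters. Of the called glycolysis genes, *Ldha* and *Pgk1* were among these 6, whereas *Pfkl* and *Tpi1* were not. The windows are chr7:138909507-138909756 on the minus strand for *Bnip3* and chr7:46845554-46845803 on the plus strand for the first of 2 starts of *Ldha*. In each CACGTG the core is present on both strands, and the shorter capitals in *Ldha* mark it on the opposite strand, so that the window of *Bnip3* holds 2 matches and that of *Ldha* 5, while the window of the second start of *Ldha* holds 0.
Bnip3: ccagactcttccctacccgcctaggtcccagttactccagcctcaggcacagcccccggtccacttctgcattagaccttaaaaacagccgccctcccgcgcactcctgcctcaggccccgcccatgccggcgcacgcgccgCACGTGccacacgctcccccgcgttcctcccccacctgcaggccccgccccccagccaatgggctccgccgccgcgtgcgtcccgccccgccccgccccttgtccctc
Ldha: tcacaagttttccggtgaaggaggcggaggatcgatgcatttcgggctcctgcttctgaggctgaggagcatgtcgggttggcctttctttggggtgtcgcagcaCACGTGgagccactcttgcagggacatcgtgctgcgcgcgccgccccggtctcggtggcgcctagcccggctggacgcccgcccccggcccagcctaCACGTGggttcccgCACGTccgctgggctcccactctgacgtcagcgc

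Oxidative phosphorylation genes, the nuclear-encoded subunits of the respiratory chain and ATP synthase, were higher by a small amount. Of 79 measured, 47 were higher (59.5%, against 10.9% of all rows), 0 lower and 32 did not pass, with a median of 0.22 (0.17 in control and 0.26 in null cells). *Ndufb8* was called (0.50), and *Ndufs8* (0.41) and *Ndufb9* (0.45), likewise subunits of complex I, passed. Null replicate 3 held the highest value of *Ndufb8*, 11.62, while the other batch 2 arrays had 11.20 to 11.21 and batch 1 had 10.74 to 10.93. Proteasome subunit genes had the same pattern, with 26 of 39 higher (66.7%), 0 lower and a median of 0.25. *Psmd10*, an assembly factor of the regulatory particle, was called (0.54), and *Psma7* (0.46) and *Psmb6* (0.42) passed. The genes for cytosolic ribosomal proteins did not follow, with 2 of 61 higher, 59 not passing and a median of 0.07 (0.15 with centred arrays).

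The SoxB1 genes and *Pax6* did not pass the test between batches. *Sox2*, a SoxB1 factor of pluripotent and neural progenitor cells, had 12.34 to 12.63 in batch 1 and 12.37 to 12.64 in batch 2 (log2 fold change 0.05, 95% interval -0.06 to 0.16, adjusted p = 0.551). *Pax6*, a factor of dorsal and intermediate progenitors, had 0.07 (adjusted p = 0.324), *Sox3* had -0.04 (adjusted p = 0.771) and *Sox1*, the earliest pan-neural SoxB1 gene, -0.20 (adjusted p = 0.173), with the lowest *Sox1* signal in control replicate 3. The other progenitor markers were lower more often than higher. Of 19 measured, 2 were higher, 7 lower and 10 did not pass, with a median of -0.15 (-0.071 with centred arrays). The highest of the 19 was *Hes1*, at 0.29. *Sox9*, a SoxE gene needed by neural stem cells, was called lower (-0.51), and *Zic1* (-0.35), a neural plate factor, *Nes* (-0.31), the intermediate filament nestin, and *Hes5* (-0.27), a Notch effector, passed.

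Proneural and early neuronal genes went both ways, with 5 of 24 higher, 4 lower and a median of 0.09 (0.17 with centred arrays). *Neurod4*, a proneural bHLH factor, was higher (0.42), and *Neurod1*, its relative, was lower (-0.33), while *Ebf2*, a factor of newborn neurons, was called lower (-0.78). *Tubb3*, the neuronal tubulin, had 0.20 (adjusted p = 0.0884). Of 18 genes of naive pluripotency, 8 were lower, 2 higher and 8 did not pass, with a median of -0.20 (-0.11 with centred arrays). *Tfcp2l1* (-0.59) was called lower, and *Tbx3* (-0.42) and *Klf5* (-0.36), likewise factors of the naive state, passed. The opposite held for *Dppa5a*, an RNA-binding protein gene of pluripotent cells (0.52, called), and for *Dppa2* (0.48) and *Foxd3* (0.43) among the general and primed pluripotency genes, of which 4 of 20 were higher and 6 lower (median -0.03, and 0.048 with centred arrays), including *Pou3f1* (-0.38) and *Trim71* (-0.45). The core factors *Nanog* (-0.03, adjusted p = 0.859) and *Pou5f1* (0.17, adjusted p = 0.276) did not pass. In control and null cells in turn, *Nanog* had -0.13 and 0.07, *Pou5f1* -0.04 and 0.37, and the general and primed list a median of -0.06 and 0.02. Of its 20 genes, 6 had an unadjusted p under 0.05 for the difference between genotypes (limma interaction), against 3.05% of all rows. After adjustment over all rows, 0 passed. In bulk cultures such as these, fewer cells of a type and less RNA per cell cannot be told apart.

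**Figure D3:**
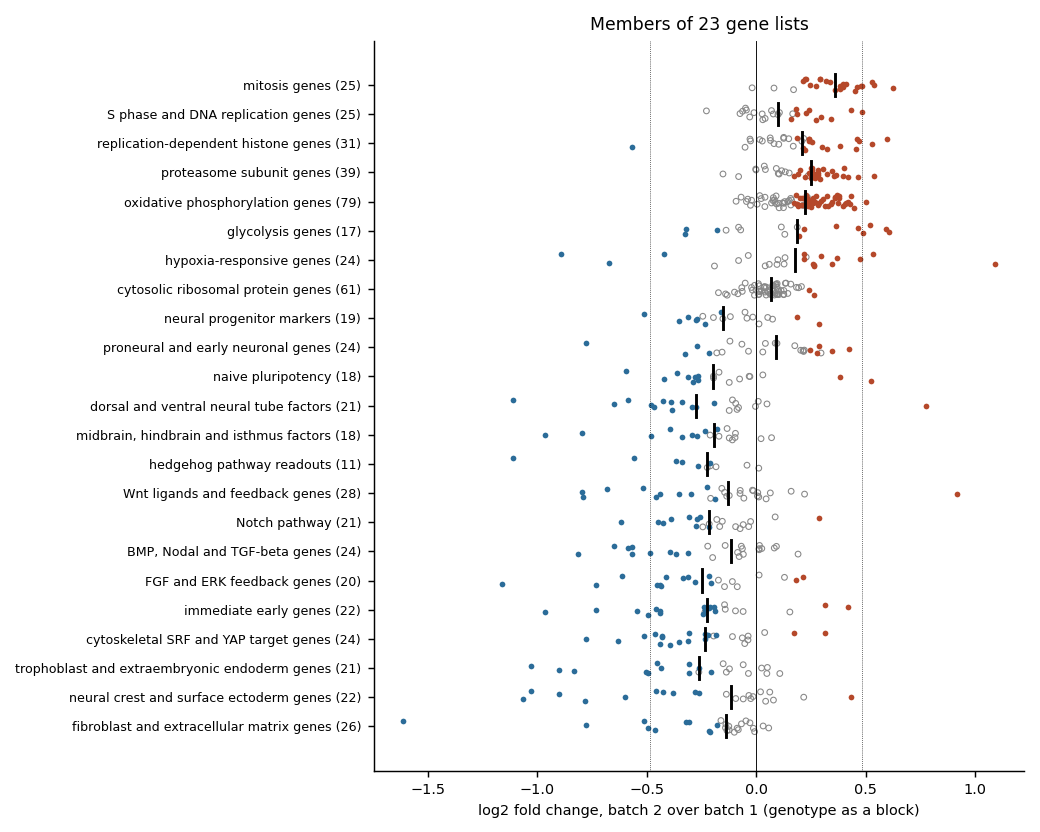
Log2 fold change of batch 2 over batch 1, with genotype as a block (horizontal axis), for each measured member of 23 gene lists, whose sizes are in parentheses. Filled circles passed an adjusted p of 0.05 (red higher, blue lower), open circles did not, bars are list medians, and the dotted verticals stand at a fold change of 1.4. The mitosis, proteasome and oxidative phosphorylation genes lie to the right, with medians of 0.36, 0.25 and 0.22, and those of the dorsal and ventral factors, the FGF and ERK feedback genes and the trophoblast and extraembryonic endoderm genes are -0.27, -0.25 and -0.26.

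Of 21 dorsal and ventral neural tube factors, 12 were lower in batch 2 (57.1%, against 9.35% of all rows), 1 was higher and 8 did not pass, with a median of -0.27. They included factors of opposite ends of the axis. *Nkx2-9*, a ventral factor next to the floor plate, had 9.13, 8.98, 8.91 and 8.92 in batch 1 and 7.51, 7.87, 8.13 and 7.99 in batch 2 (-1.11, SE 0.11, adjusted p = 0.000123). *Nkx6-1*, of ventral progenitors, was lower by less (-0.48), and so were the dorsal factors *Msx2* (-0.65), *Msx1* (-0.59) and *Pax3* (-0.43). *Olig3*, which marks the most dorsal interneuron progenitors, was the member that was higher (0.78), with 8.29 to 9.10 in batch 1 and 8.87 to 9.79 in batch 2, where each genotype was apart (0.69 in control and 0.86 in null cells).

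Along the other axis, 9 of 18 midbrain, hindbrain and isthmus factors were lower and 0 higher, with a median of -0.19 (-0.11 with centred arrays). *Egr2*, also called Krox20, a factor of rhombomeres and an immediate early gene, had 11.82, 11.76, 11.62 and 11.62 in batch 1 and 11.06, 10.96, 10.22 and 10.70 in batch 2 (-0.97, SE 0.10). *Wnt1*, the ligand of the midbrain and roof plate, was called too (-0.79), and *Irx2* (-0.48) and *Irx3* (-0.34), Iroquois factors of the caudal neural plate, passed. Of 16 forebrain factors, 3 were lower and 0 higher, with a median of -0.06 that was 0.02 when arrays were centred on their medians. *Fezf2*, a forebrain zinc finger factor and one of the genes in the study's table of genotype effects, was called (-0.83), and *Tcf7l2*, a Wnt effector of the thalamus, passed (-0.46). Of 28 Hox and Cdx genes, 2 were higher, 2 lower and 24 did not pass, with a median of -0.02 (0.064 with centred arrays), and *Cdx2*, a factor of trophoblast and posterior embryo, was the only member called (-0.61). Of the 18 midbrain, hindbrain and isthmus factors, 13 lay above the median signal of the rows tested. So did 3 of the 16 forebrain factors and 8 of the 28 Hox and Cdx genes. A difference between these lists in the share that passed cannot be told apart from low signal.

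Of 11 measured readouts of hedgehog signalling, 6 were lower, 0 higher and 5 did not pass, with a median of -0.22 (-0.14 with centred arrays). *Foxf1*, a mesenchymal target of the pathway, had 10.21, 10.21, 10.22 and 9.95 in batch 1 and 9.18, 8.81, 8.95 and 9.22 in batch 2 (-1.11, SE 0.10), with -1.40 on a second row. *Gli1*, the transcriptional target that reports pathway activity most directly, was called (-0.56), and *Ptch1*, the receptor and feedback inhibitor (-0.36), and *Gli2*, the main activator (-0.34), passed. The values of *Gli1* were 7.80 to 8.05 in batch 1 and 7.28 to 7.49 in batch 2 and did not overlap.

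In the Wnt pathway, 10 of 28 ligands and feedback genes were lower and 1 was higher, with a median of -0.13 (-0.047 with centred arrays). Feedback inhibitors that the pathway itself induces were among the lower genes, namely *Dkk1* (-0.79), a secreted antagonist, and *Znrf3* (-0.68), a ubiquitin ligase that removes Wnt receptors, which were called, and *Axin2* (-0.44), a scaffold of the destruction complex, which passed below a fold change of 1.4. The receptor *Fzd10* (-0.52) and the ligand *Wnt1* were called too. *Wnt8a* was the only one higher. It had 9.14 and 9.20 in control and 7.90 and 8.19 in null cultures of batch 1, and 9.89, 9.84, 9.10 and 9.26 in batch 2, so that its batches were apart within each genotype (0.70 in control and 1.14 in null cells) although null cultures of batch 2 overlapped control cultures of batch 1.

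Feedback genes of FGF and ERK signalling had 12 of 20 members lower, 2 higher and a median of -0.25. *Dusp5*, a nuclear phosphatase of ERK, had 10.18, 10.11, 10.16 and 10.17 in batch 1 and 8.98, 9.00, 9.08 and 8.93 in batch 2, a 2.24-fold difference in which the batches were far apart and the genotypes were not (-1.16, SE 0.05, adjusted p = 1.65e-06). *Il17rd*, or Sef, which blocks FGF receptor signalling (-0.73), and *Dusp4* (-0.61) were called, and the receptor *Fgfr2* passed (-0.45). Immediate early genes, which serum, ERK and SRF induce within minutes, were lower in 14 of 22 (63.6%, against 9.35% of all rows) and higher in 2, with a median of -0.22 (-0.14 with centred arrays). *Egr2*, *Myc* (-0.73), *Egr1* (-0.55) and *Jund* (-0.49) were called. *Myc*, the growth factor-induced regulator of ribosome synthesis and growth, had 10.49 to 10.54 on the 4 arrays of batch 1 and 9.62 to 9.90 in batch 2.

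Target genes of SRF and YAP, which respond to actin tension and cell density, were lower in 15 of 24 and higher in 2, with a median of -0.23 (-0.15 with centred arrays). The highest member of the list was *Ccn2*, at 0.31, so its members did not all go the same way. *Acta2*, smooth muscle actin, had 11.68 and 11.67 in control and 12.13 and 12.03 in null cultures of batch 1, and 10.73, 10.65, 11.52 and 11.49 in batch 2 (-0.78, SE 0.08). *Tagln2*, an actin-binding protein (-0.63), and *Tagln* (-0.51), also called SM22, were called, and *Srf* itself (-0.44) and *Vcl*, vinculin of focal adhesions (-0.39), passed. *Tagln* was apart in control cells (-0.86) but overlapped in null cells (-0.17), 1 of 8 called rows that were not apart in both. The mean of the list was lower by more in control arrays, at -0.24 and -0.18 in batch 2 against 0.10 and 0.09 in batch 1, than in null arrays, at -0.03 and -0.04 against 0.13 and 0.17, and 5 of its 24 genes, against 3.05% of all rows, had an unadjusted p under 0.05 for the difference between genotypes, with 0 after adjustment over all rows.

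**Figure D4:**
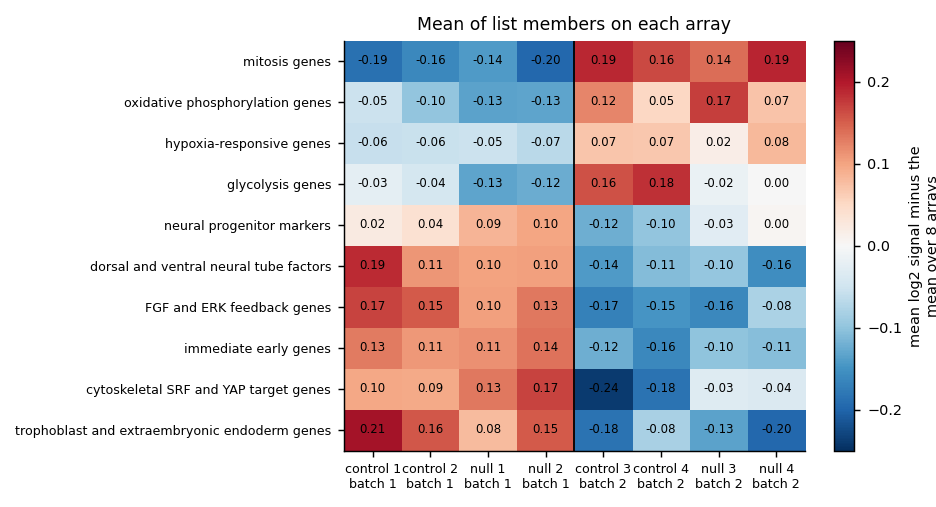
Mean over the members of 10 gene lists on each array, as log2 signal minus each gene's mean over the 8 arrays (colour and printed values), with the arrays of batch 1 left of the line and those of batch 2 right of it. The means of mitosis genes run from -0.20 to -0.14 in batch 1 and from 0.14 to 0.19 in batch 2, and those of immediate early genes from 0.11 to 0.14 and from -0.16 to -0.10.

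Genes of BMP, Nodal and TGF-beta signalling were lower in 9 of 24 and higher in 0, with a median of -0.11 (-0.032 with centred arrays). Of the 24, 6 were called lower, against 1.47% of all rows. These were the ligands *Tgfb2* (-0.81), *Bmp7* (-0.57) and *Bmp2* (-0.49), the inhibitory *Smad7* (-0.57), and *Msx1* and *Msx2*, targets of BMP that are counted above as dorsal factors. *Tgfb2* was further apart in control cells (-1.05) than in null cells (-0.57). Of 21 Notch pathway genes, 9 were lower and 1 higher, with a median of -0.22 (-0.13 with centred arrays). The highest member was *Hes1*, at 0.29. The receptor *Notch2* was called (-0.62), and the ligand *Jag1* (-0.43), the glycosyltransferase *Lfng*, which tunes ligand choice (-0.45), and the effector *Hey2* (-0.39) passed.

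Of 18 retinoic acid genes, 3 were higher and 5 lower, with a median of 0.01 (0.093 with centred arrays), and the enzymes that degrade retinoic acid differed in opposite directions. *Cyp26a1* had 7.23, 7.16, 6.86 and 6.75 in batch 1 and 8.01, 7.89, 7.66 and 7.72 in batch 2 (0.82, SE 0.06, adjusted p = 1.95e-05). *Cyp26b1* had 9.25, 9.03, 8.79 and 8.88 in batch 1 and 8.25, 8.50, 8.31 and 8.51 in batch 2 (-0.59, SE 0.09, adjusted p = 0.00125). Neither overlapped between batches. *Rdh10*, which makes retinaldehyde (-0.39), and the receptor *Rara* (-0.46) passed with lower values.

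Non-neural lineage genes were lower more often than higher. Of 21 genes of trophoblast and extraembryonic endoderm, 11 were lower, 0 higher and 10 did not pass, with a median of -0.26. The simple-epithelium keratins led them. *Krt8* had 11.40, 11.45, 10.96 and 11.06 in batch 1 and 10.11, 10.36, 10.28 and 9.99 in batch 2, a 2.04-fold difference (-1.03, SE 0.09), and its partner *Krt18* had -0.90. *Gata3*, a trophoblast and surface ectoderm factor (-0.83), *Apoe*, the lipid carrier of extraembryonic endoderm (-0.50), and *Lamc1*, a laminin chain (-0.49), were also called. The 4 defining trophoblast markers had a mean log2 signal of 6.79 to 7.02 on the arrays of batch 1 and 6.46 to 6.72 in batch 2, and 1 of the 4 lay above the median signal of the rows tested.

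Of 22 neural crest and surface ectoderm genes, 10 were lower (45.5%, against 9.35% of all rows) and 1 higher, with a median of -0.12 (-0.033 with centred arrays). The member that was higher was *Foxd3* (0.43), which is also counted above with the pluripotency genes. Of the 4 defining neural crest markers, 2 passed with lower values and 1, *Foxd3*, with a higher one. Only 1 of the 4 lay above the median signal of the rows tested. Beside the keratins, *Ets1*, a factor of cranial crest and endothelium, had 8.40, 8.43, 8.89 and 8.92 in batch 1 and 7.36, 7.34, 7.91 and 7.77 in batch 2 (-1.07, SE 0.05, adjusted p = 1.74e-06), and *Tfap2b* (-0.78) and *Snai1* (-0.60), factors of crest formation and delamination, were called. Of 19 mesoderm and endoderm genes, 7 were lower and 0 higher, with a median of -0.20 (-0.12 with centred arrays), and *Gata6* (-0.61), *Cdx2*, *Eomes* (-0.55) and *Kdr* (-0.52) were called. Of the 19, 3 lay above the median signal of the rows tested (7.67). The 4 called genes, with mean signals of 5.88 to 7.64, did not. *Meox1*, a somite factor, passed at -0.27. *Eomes* differed mainly in control cells, with 7.47 and 7.61 in batch 1 and 6.77 and 6.53 in batch 2, against 6.96 and 6.91 and then 6.68 and 6.77 in null cells. In endothelial and blood genes 4 of 15 were lower, with a median of -0.08 that was 0.0027 when arrays were centred, and *Flt1* (-0.81), *Kdr* and *Runx1* (-0.50) were called, and none of the 5 defining markers measured passed.

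Genes of fibroblasts and extracellular matrix were lower in 10 of 26 and higher in 0, with a median of -0.14 (-0.054 with centred arrays). *Timp3*, *Acta2*, *Tagln* and *Col1a2*, a chain of type I collagen (-0.50), were called, and *Fn1*, fibronectin, passed (-0.46). As the methods name MEFs as feeder cells, the 8 defining fibroblast markers were read beside them. Their mean log2 signal was 6.70 to 6.85 in batch 1 and 6.53 to 6.62 in batch 2, 2 of 8 were above the median signal of the rows tested, 2 of 8 passed with lower values, 1 of those called, and their median log2 fold change was -0.13. The part of feeder or other non-neural cells in the batch difference was not tested.

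The genes that were lower in batch 2 were long genes more often than the others, and genomic span is given beside them because it runs across the lists. The 18553 protein-coding genes with a span in the RefSeq table were put in 5 classes of equal size. The longest class, with a median span of 116 kb, held 123 genes called lower and 11 called higher. The other 4 classes together held 170 called lower and 176 called higher. The median span was 42.2 kb for genes called lower, 16.8 kb for genes called higher and 19.2 kb for all. The median log2 fold change of the longest class was -0.03 in control and -0.06 in null cells, and in the other classes it lay between -0.00016 and 0.02. Over the genes above the median signal of the rows tested, the median log2 fold change fell from class to class, from 0.070 in the shortest through 0.057, 0.034 and 0.014 to -0.065 in the longest. Outside the longest class, 10 of 19 dorsal and ventral factors, 10 of 16 FGF feedback genes, 14 of 22 immediate early genes, 13 of 21 SRF and YAP targets and 7 of 15 trophoblast and extraembryonic genes passed with lower values, as did 3 of 11 glial and radial glial genes (8 of 19 over all classes), 2 of 10 endothelial and blood genes (4 of 15), 7 of 16 neural crest and surface ectoderm genes (10 of 22) and 3 of 5 hedgehog readouts (6 of 11). The part of gene length in the batch difference was not tested.

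**Figure D5:**
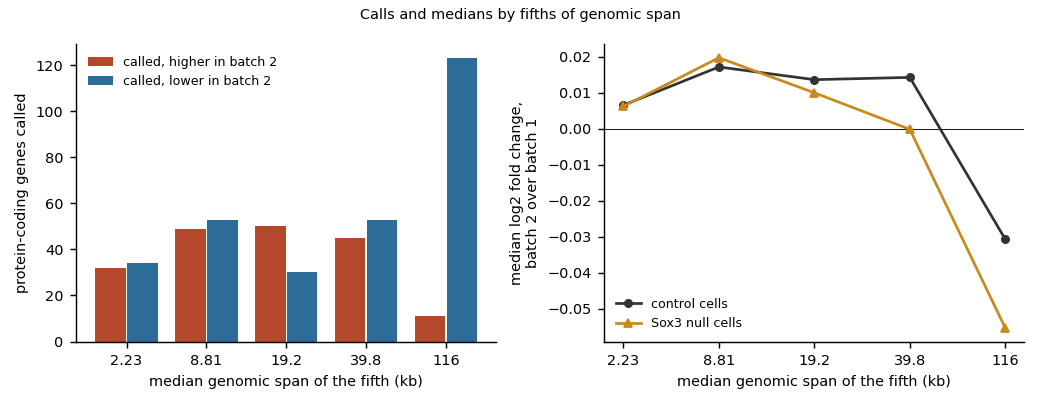
Left, number of protein-coding genes called higher (red) and lower (blue) in batch 2 in 5 classes of genomic span, named by their median span in kb. Right, median log2 fold change of each class in control cells (circles) and *Sox3* null cells (triangles). The longest class holds 123 genes called lower and 11 called higher.

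*Slc30a1*, the plasma membrane zinc exporter ZnT1 that zinc itself induces, had 9.86, 9.91, 9.99 and 9.87 in batch 1 and 8.58, 8.60, 8.56 and 8.76 in batch 2, which is 2.43-fold lower (-1.28, SE 0.06, adjusted p = 1.65e-06), with -1.29 in control and -1.27 in null cells. The metallothioneins, which bind zinc and are induced with it, were lower by less, *Mt1* by -0.34 (12.35 to 12.66 in batch 1 and 12.08 to 12.21 in batch 2) and *Mt2* by -0.16. In all, 5 of 11 metallothionein and zinc genes were lower and 0 higher, with a median of -0.08 that was 0.0033 when arrays were centred. The core of the metal response element was searched as TGCGCNC and as TGCACNC, which 12.6% and 10.2% of all promoters held, and each form was present in 3 of 9 zinc genes with a window. The windows of *Slc30a1* (chr1:191906531-191906780) and *Mt1* (chr8:94178839-94179088), both on the plus strand, hold 1 match each.
Slc30a1: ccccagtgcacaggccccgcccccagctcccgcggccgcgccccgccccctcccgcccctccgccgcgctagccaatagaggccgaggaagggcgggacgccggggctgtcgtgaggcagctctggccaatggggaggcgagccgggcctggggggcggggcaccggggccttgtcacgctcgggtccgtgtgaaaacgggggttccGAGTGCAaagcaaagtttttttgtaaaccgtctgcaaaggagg
Mt1: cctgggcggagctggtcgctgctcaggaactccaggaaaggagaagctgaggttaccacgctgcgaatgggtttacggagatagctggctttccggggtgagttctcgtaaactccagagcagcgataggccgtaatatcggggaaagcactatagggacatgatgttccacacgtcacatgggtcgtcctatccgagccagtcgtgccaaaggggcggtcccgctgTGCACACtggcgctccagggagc

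In cholesterol synthesis, 9 of 20 genes were lower and 1 higher, with a median of -0.13 (-0.053 with centred arrays). *Hsd17b7*, which reduces a sterol intermediate, was called (-0.60), *Srebf2*, the factor that induces the pathway, passed at -0.34, and *Tm7sf2*, a sterol reductase, was higher (0.45). Among 345 measured zinc finger genes named Zfp, 13 were called higher (3.77%, against 1.03% of all rows) and 4 lower (1.16%, against 1.47%), with a median of 0.06 (0.15 with centred arrays). *Zfp760* (0.68), *Zfp72* (0.64) and *Zfp954* (0.60) were called higher, and *Zfp36l2*, which is no DNA-binding factor but a protein that destabilises mRNA, was called lower (-0.64).

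Of 300 microRNA loci, 1 was called higher and 3 lower, 1.33% in all against 2.49% of all rows, which is below the background. Only 40 of the 300 lay above the median signal of the rows tested, so this low share cannot be told apart from low signal. *Mir697* was higher (0.50), and *Mir505* (-0.94, SE 0.22), *Mir19b-1* (-0.51) and *Mir708* (-0.50) were lower, and *Mir181b-1* passed with a higher value (0.36). On this array such rows read the hairpin or its host transcript rather than the mature microRNA. The Mir17 cluster on chromosome 14 is shown because 4 of its 5 measured members passed with lower values, *Mir17* (-0.37), *Mir18* (-0.33), *Mir20a* (-0.43) and *Mir19b-1*, while *Mir19a* had -0.05 (adjusted p = 0.793). All 5 derive from 1 primary transcript, so they are not separate observations of the batch difference. The mature sequences below are RefSeq's, with the seed (bases 2 to 8) in capitals, and the first pair shares 1 seed and the last pair another.
mmu-miR-17-5p: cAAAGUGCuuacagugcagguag
mmu-miR-20a-5p: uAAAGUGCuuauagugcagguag
mmu-miR-18a-5p: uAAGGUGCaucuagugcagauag
mmu-miR-19a-3p: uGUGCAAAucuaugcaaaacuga
mmu-miR-19b-3p: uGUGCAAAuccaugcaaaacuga

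The genes of the study's table of genotype effects were also read by batch, in a design where batch and genotype are balanced. Of the 19 listed, 18 were measured. Of these 18, 8 were lower in batch 2 (44.4%, against 9.35% of all rows), 2 higher (11.1%, against 10.9%) and 8 did not pass. In all, 4 were called, each of them lower (22.2%, against 1.47% of all rows). *Tmem163*, a zinc-binding membrane protein of neurons, had 9.46 and 9.55 in control and 8.88 and 8.96 in null cultures of batch 1, and 8.69, 8.71, 8.24 and 8.16 in batch 2 (-0.76). *Slit1*, an axon guidance ligand, had 9.41, 9.45, 10.16 and 10.19 in batch 1 and 8.62, 8.87, 9.38 and 9.50 in batch 2 (-0.72). Genotypes were apart within each batch for both genes, and for *Slit1* the null cultures of batch 2 overlapped the control cultures of batch 1. *Fezf2* (-0.83) and *Cp*, ceruloplasmin (-0.61), were the others called, and *Dbx1*, a factor of intermediate neural tube progenitors, passed at -0.29, with 11.25, 11.21, 10.27 and 10.09 in batch 1 and 11.05, 11.01, 9.75 and 9.82 in batch 2.

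The rows with the smallest p for a difference of the batch effect between genotypes are given as values, since none passed. *Vrtn*, vertnin, a factor of vertebral number, had 8.57 and 8.56 in control cultures of batch 1 and 7.78 and 7.71 in batch 2, and 7.49, 7.54, 7.40 and 7.54 in null cultures, so that its log2 fold change was -0.82 in control and -0.04 in null cells (adjusted p = 0.862 for the difference). *Foxi3*, a factor of cranial placodes, had -1.62 in control and -0.60 in null cells. *S100a11*, a calcium-binding protein gene, entered through the dimmer of its rows, which had -0.74 and -0.15 (-0.63 and -0.15 on its brightest row), and *Cyp2b23*, a cytochrome P450 gene, 0.21 and 0.95. In 3 of these 4 genes the genotypes lay closer together in batch 2 than in batch 1, and in the fourth, *S100a11*, further apart.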

How the data were processed

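RNA of Day 4 cultures was hybridised to Affymetrix Mouse Gene 1.0 ST arrays, 1 per culture. The authors deposited log2 expression values for 8 samples, and Partek is named in the submitters' processing notes, while normalization and build are stated in no source used here. The columns were tested as deposited, without a filter on dim rows. Rows were named through the platform's probe gene table, and the brightest row stands for a gene. With limma 3.58.1 in R 4.3.3, genotype and batch were fitted on 23410 rows, and a model of the 4 group means gave the effect within each genotype and their difference, with Benjamini-Hochberg adjustment over all rows. The methods treat cultures of a genotype as biological replicates from 2 experiments. Named were the 12 largest differences in each direction that were apart in both genotypes, up to 4 members of each described list with the smallest p and its defining markers, the 4 genes whose rows (any row of a gene) had the smallest p for the genotype difference, and the genes of the study's table. *H3c15*, *Tagln*, *Eomes*, *Bmp2*, *Tfap2b*, *Lamc1*, *Ier3*, *Txnip*, members of the Mir17 cluster and the other genes beyond that rule were chosen after their values were seen. The comparison and the 51 gene lists were chosen with earlier results of these data known.

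On simulated data with 23410 rows for this comparison, 200 rows were changed. A log2 change of 0.5 passed the adjusted p in 82% of 100 rows and one of 1 in 99% of 100 rows. Of the passing rows, 3.21% were unchanged ones. The fold change needed for a call was not applied there, so these shares do not give the recovery of called rows. In the data 4736 rows passed, so the share of unchanged rows need not hold for them. Alternatives covered the rows tested, filters on dim rows, the genotype term, the variance model, the scaling, array weights, rows of 1 gene, the threshold, each genotype alone, a replicate block and leaving out each array. The number of arrays limits the precision.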

Additional observations from a re-analysis of the deposited data

Results flagged for a closer look

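Of 336 groups of 4 arrays of 1 batch checked over the named genes other than *Ccn2* and *Hes1*, 9 held an outlying array (2.68%). Its gap to the nearest of the other 3 was large against the range of the group. For 4 like arrays chance gives about 1 in 20, but each group held 2 control and 2 null cultures. A gene that differs by genotype then forms 2 pairs and is seldom flagged, so the low share does not show that outliers are rare. Null replicate 3 of batch 2 held 3 of them. It was at 11.62 for *Ndufb8*, where the others were at 11.20 to 11.21, at 10.69 for *Psmd10* (10.48 to 10.50) and at 9.72 for *Zfp36l2* (9.91 to 9.93). Control replicate 1 of batch 1 was at 8.99 for *Snai1* (8.67 to 8.71) and at 6.99 for the stress-induced gene *Ier3* (6.75 to 6.78). The others were null replicate 2 of batch 1 at 9.95 for *Foxf1* (10.21 to 10.23), null replicate 1 of batch 1 at 12.06 for *Cdk1* (12.01 to 12.02), control replicate 3 of batch 2 at 10.97 for *Sox1* (11.35 to 11.41) and control replicate 4 of batch 2 at 6.62 for *Mir20a* (6.54 to 6.55).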

How the results depend on the processing

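The number of rows called went from 584 to 982 with all rows of the table tested (676 lower, and 280 called in control cells), to 4736 at any fold change (2546 higher, 2190 lower) and to 28 at a fold change of 2 or more (5 higher, 23 lower). With each row's own variance 23 rows were called in control and 13 in null cells. Centring the arrays gave 490 higher and 205 lower. Leaving out 1 array gave 500 to 742 called rows, 200 to 299 higher and 295 to 443 lower, 306 to 762 in control cells (306 without control replicate 1, 358 without control replicate 3) and 383 to 973 in null cells (383 without null replicate 2, 410 without null replicate 3). The samples share only a number across genotypes (correlation of deviations -0.32 in batch 1 and 0.30 in batch 2), and with the replicate block 585 rows were called, 584 of them shared. Genes near 0 changed sign, namely *Sox2* (-0.0027) and *Mir19a* (0.018) after quantile normalization, *Sox3* (0.039), *Nanog* (0.053) and *Mir19a* (0.027) after centring, *Pou5f1* in control arrays alone (-0.037), *Sox3* (0.050), *Nanog* (0.069) and *Mir19a* (0.16) in null arrays alone, and, with 1 array left out, *Nanog* (-0.105 to 0.038) and *Mir19a* (-0.13 to 0.070). The cause was not tested. The number with a different batch effect between genotypes was 0 in every alternative run. Centring moved all but 3 of 33 list medians beyond their spread, upwards, and 6 of the 33 changed sign, each between -0.08 and 0.06 under both scalings.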

Other observations

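The families below were chosen after their values were seen. Their medians were not recomputed with centred arrays, a scaling that moved the other list medians upwards, so the medians given here hold for the deposited scaling only. Of 20 basement membrane genes, 9 were lower in batch 2 (45.0%, against 9.35% of all rows) and 0 higher, with a median of -0.14. Beside *Nid1* and *Lamc1*, the nidogen *Nid2* (-0.95), the heparan sulphate proteoglycan perlecan, *Hspg2* (-0.77), and the type IV collagen chains *Col4a1* (-0.53) and *Col4a2* (-0.55) were called. The median span of this family was 114 kb, and 14 of the 20 lay in the longest of 5 equal classes of protein-coding genes. For keratins and claudins as families, the share that passed with lower values and the median lay near those of all rows (9.35% and 0.0027). The share called lower was 6.38% for keratins and 8.70% for claudins, against 1.47% of all rows. Above the median signal of the rows tested lay 4 of the 47 keratins and 5 of the 23 claudins. Of 47 keratins, 5 were lower (10.6%) and 0 higher, with a median of -0.0025, and *Krt19* (-0.95) was called with *Krt8* and *Krt18*. Of 23 claudins, 3 were lower (13.0%) and 2 higher (8.70%), with a median of -0.03, and *Cldn6* (-0.98), a claudin of embryonic epithelia, was called with *Cldn4*.

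Of 22 circadian clock genes, 10 were lower (45.5%) and 1 higher, with a median of -0.16. *Per2*, a core repressor of the clock, had 8.03, 8.16, 8.21 and 8.18 in batch 1 and 7.28, 7.49, 7.35 and 7.30 in batch 2 (-0.79, SE 0.06). *Bhlhe40* and *Bhlhe41* were lower too, while *Ciart*, another repressor, was higher (0.60), with 0.30 on a second row. *Txnip*, a glucose-responsive inhibitor of thioredoxin, had 10.38, 10.37, 10.16 and 10.20 in batch 1 and 11.21, 11.09, 11.18 and 10.85 in batch 2 (0.80). No source used here states the hour of collection.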
